A study of Mus musculus with 6 samples.

Results

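Ephrins, semaphorins, netrins and SLITs are the ligands of the axon guidance families, and Eph receptors, plexins, neuropilins, ROBO and UNC5 proteins are their receptors. The members were taken from the gene table by symbol, and 68 of its 34461 genes matched, all protein coding: 8 ephrins, 14 Eph receptors, 20 semaphorins, 9 plexins, 2 neuropilins, 3 SLIT ligands, 4 ROBO receptors, 3 netrins and 5 genes whose symbol starts with that of an UNC5 receptor. The last group includes *Unc5cl*, which is not known as a netrin receptor. RNA-seq was carried out on whole ovaries of 7-month-old females, 3 control and 3 *Trim28* cKO. The *Trim28* cKO mice are *Trim28* flox/flox; *Nr5a1:Cre*, in which a Cre driven by *Nr5a1* regulatory sequences deletes *Trim28*, a SUMO E3 ligase and transcriptional co-regulator, in somatic cells of the gonad; ovarian cells that lack the Cre keep the gene. Control mice of this cross are *Trim28* flox/flox without *Nr5a1:Cre* or *Trim28* flox/+ with it, and the sources used here do not say which genotype each control mouse had. All mice carried a mixed 129SV/C57BL6/J background, and 1 mouse per library was assumed. Because the ovary was extracted whole, fewer cells of a type and less RNA per cell cannot be told apart.

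Guidance proteins were first known from growing axons, where a ligand on one cell or in the matrix attracts or repels the cell that carries the receptor. The same pairs act outside the nervous system in cell sorting, blood vessel growth and immune cell contact. SLITs are secreted and bind ROBO1 and ROBO2. Netrins bind DCC, neogenin and the UNC5 receptors. Semaphorins signal through plexins, for most of the secreted class 3 together with neuropilins. Ephrins are tethered to the cell surface, the A type by a lipid anchor and the B type by a transmembrane segment, and the Eph receptors that bind them are tyrosine kinases. In the ovary, SLIT and ROBO proteins are known from the human corpus luteum.

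The DNA just before the transcription start is shown for 4 members whose levels moved far. Among the members past the fold limit used below that have 1 start in the promoter table, they are the 2 with the largest rise and the 2 with the largest fall in CPM (counts per 1000000 counts of a library, after TMM scaling). The stretches of 250 bases are from RefSeq on GRCm38.p6, written 5′ to 3′ on the gene's strand up to the base before the start. Capitals mark every match, on either strand, to 5 motifs: AAGGTCA (NR5A1-type), GTAAACA (forkhead core), AACAAT (SOX-type), AGATAA (bound by factors of the GATA family) and GAGGAAG (ETS-type).
Plxnc1, chr10:94944846-94945095, minus strand: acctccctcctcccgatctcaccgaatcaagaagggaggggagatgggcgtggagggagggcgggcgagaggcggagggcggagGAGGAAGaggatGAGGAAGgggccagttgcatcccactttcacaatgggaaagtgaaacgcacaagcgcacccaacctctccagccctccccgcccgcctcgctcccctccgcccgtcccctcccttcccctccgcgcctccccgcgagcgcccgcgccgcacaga
Slit3, chr11:35121206-35121455, plus strand: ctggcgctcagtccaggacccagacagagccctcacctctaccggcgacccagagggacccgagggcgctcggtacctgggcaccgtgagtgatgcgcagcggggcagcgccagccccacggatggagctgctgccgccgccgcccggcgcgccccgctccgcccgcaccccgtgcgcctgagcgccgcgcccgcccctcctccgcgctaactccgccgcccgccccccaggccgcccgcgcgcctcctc
Sema5a, chr15:32244563-32244812, plus strand: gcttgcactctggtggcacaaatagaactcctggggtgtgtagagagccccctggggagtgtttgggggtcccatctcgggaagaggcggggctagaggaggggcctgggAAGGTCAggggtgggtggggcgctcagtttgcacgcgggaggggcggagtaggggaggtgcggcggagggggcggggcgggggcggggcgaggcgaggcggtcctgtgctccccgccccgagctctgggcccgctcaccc
Sema3g, chr14:31217623-31217872, plus strand: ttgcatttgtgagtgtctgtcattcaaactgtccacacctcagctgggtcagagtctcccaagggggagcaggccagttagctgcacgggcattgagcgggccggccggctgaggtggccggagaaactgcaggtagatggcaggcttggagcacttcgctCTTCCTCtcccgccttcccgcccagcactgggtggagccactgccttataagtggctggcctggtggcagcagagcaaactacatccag

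The *Plxnc1* stretch held 2 ETS-type matches, beginning 166 and 154 bases before the start. In *Sema5a* an AAGGTCA began 140 bases before the start, in *Sema3g* an ETS-type match lay on the opposite strand, and *Slit3* had no match. The gene table places *Slit3* from base 35121224 of chromosome 11, upstream of the RefSeq start, so most of its stretch lies inside the gene as placed there. A stretch was found for 59 of the 68 members, 75 in all because some genes have several starts. Of these 75, AAGGTCA was in 4, AACAAT in 3, AGATAA in 3, GAGGAAG in 17 and GTAAACA in 0. Among all 32851 stretches of the same length, 4.08% held AAGGTCA, 9.42% AACAAT, 9.99% AGATAA, 10.6% GAGGAAG and 3.17% GTAAACA. The members' stretches had a median GC content of 64.4%, against 52.4% over all stretches, and base composition was not accounted for in these shares. Of 21 stretches of genes higher in *Trim28* cKO ovaries 7 held GAGGAAG, and of 21 of genes lower there 2 did. Their median GC content was 59.6% and 65.6% respectively, and a gene with several starts was counted once per start. These matches describe letters in a window and were not tested.

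The deleted gene, *Trim28* (chr7:12999114-13031035, plus strand, ENSMUSG00000005566; all gene coordinates are on mm10), measured 155, 178 and 155 CPM in control ovaries and 48.8, 55.6 and 71.2 CPM in *Trim28* cKO ovaries. Total counts ranged from 23615580 to 48508461 per library, so that 3 counts, taken as the floor of detection, correspond to 0.0628 to 0.122 CPM. The members took between 0.364% and 0.430% of the counts of a library. The genotypes lay apart on the first principal component (71.7% of the variance), and no library stood with the other group. Markers of several ovarian cell types differed between the groups, and their values are given with the results below.

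Of the 68 members 64 passed the filter on low counts and were compared with the quasi-likelihood test of edgeR. *Epha6*, *Efna3*, *Ntn5* and *Unc5cl* were too low. At an adjusted p of at most 0.05, 15 members (23.4%) were higher in *Trim28* cKO ovaries, where 20.2% of all tested genes were, and 18 (28.1%) were lower, where 16.8% of all tested genes were. With a log2 fold change beyond 1 in addition, 9 members (14.1%) were higher against 13.7% of all tested genes, and 12 (18.8%) were lower against 8.03%. The 12 include *Epha8* and *Epha10*, which passed the filter through their control counts. With a filter of 1 CPM in 3 libraries, which did not test them, 10 members were lower beyond this limit. For 40 of 64 members (62.5%) the libraries of the groups did not overlap, as for 52.8% of all tested genes. The share of higher members is thus near the background, and no test of the list as a whole was made. The median log2 fold change was 0.07 over the members and 0.00 over all tested genes. Ligands moved both ways, with 9 higher and 7 lower of 32 tested, and among receptors 6 were higher and 11 lower of 32.

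**Figure D1:**
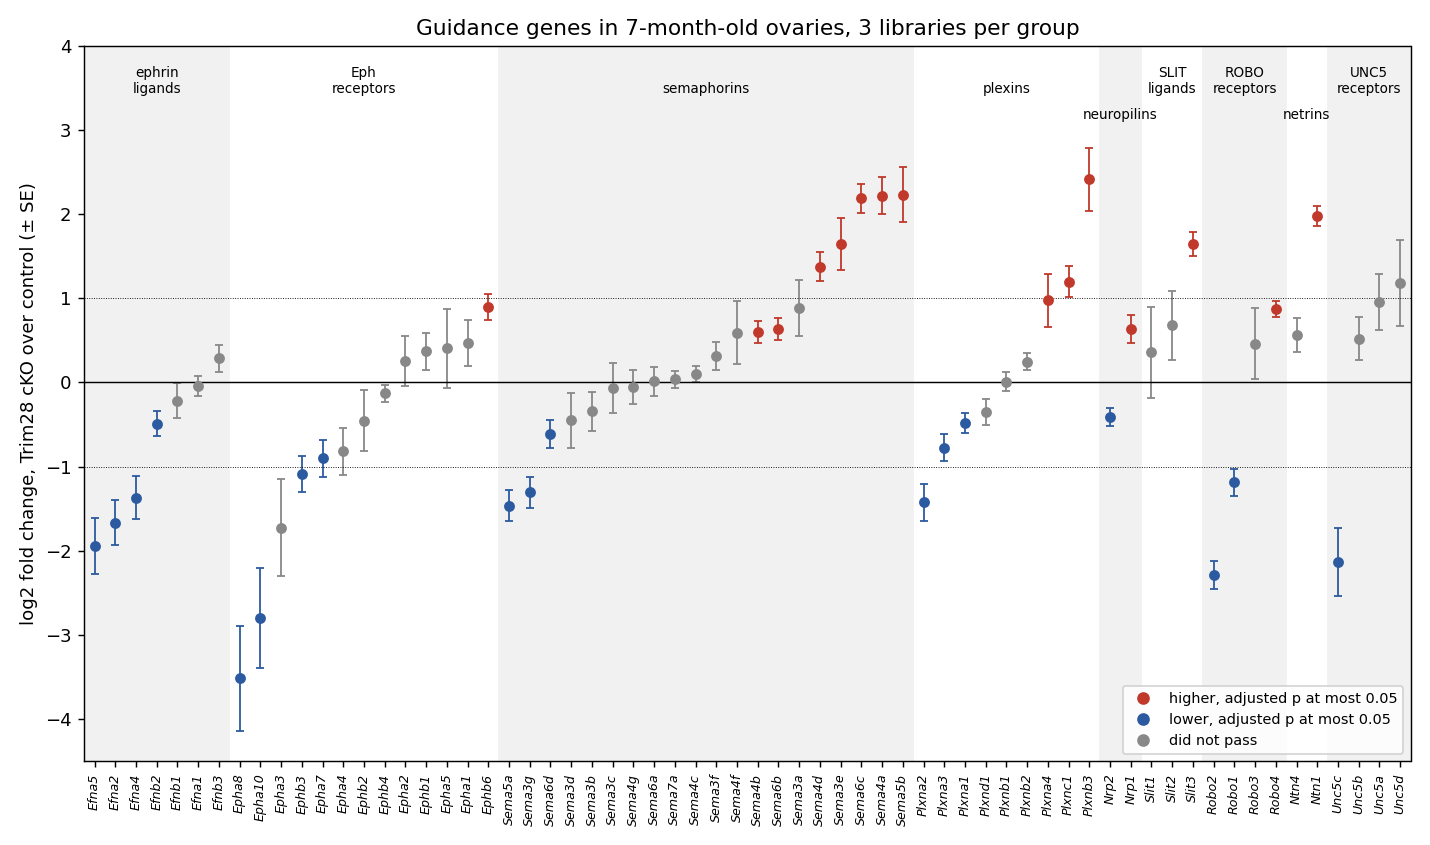
Log2 fold change of the 64 tested guidance genes, *Trim28* cKO over control, with its standard error, grouped by family and ordered within it; red points are higher and blue points lower at an adjusted p of at most 0.05, grey points did not pass, and dotted lines mark log2 fold changes of -1 and 1. No ephrin of 7 tested was higher, while 7 of 20 semaphorins were, against 20.2% of all tested genes. The points of *Epha8* and *Epha10* rest on few counts in *Trim28* cKO libraries.

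In the SLIT and ROBO families *Slit3* and *Robo4* rose while *Robo1* and *Robo2* fell. *Slit3*, a secreted ligand of ROBO receptors (chr11:35121224-35708507, plus strand, ENSMUSG00000056427), was at 47.8, 64 and 51.5 CPM in control and 158, 162 and 192 CPM in *Trim28* cKO libraries. Every *Trim28* cKO library exceeded every control one (log2 fold change 1.65 ± 0.14 (SE), adjusted p = 0.000382). *Slit1* and *Slit2*, the other SLIT ligands, had overlapping groups and did not pass (log2 fold changes 0.36 ± 0.54 and 0.68 ± 0.41). Per kb of the longest coding transcript, *Slit3* was the most abundant SLIT gene in all 6 libraries, with 83.2 ± 8.29% of the summed SLIT level in control and 91.8 ± 3.72% in *Trim28* cKO ovaries (SD, n = 3). The summed SLIT level went from 12.5 ± 1.39 to 35.6 ± 3.43 CPM per kb.

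*Robo1* and *Robo2*, the receptors through which SLITs repel cells, were both lower. *Robo2* (chr16:73892306-74411825, minus strand, ENSMUSG00000052516) was at 44.1, 34.3 and 35.6 CPM in control libraries. In *Trim28* cKO libraries it was at 7.44, 6.8 and 9.06 CPM, with no overlap (log2 fold change -2.29 ± 0.17 (SE), adjusted p = 0.00024). *Robo1* was at 94.5, 70.8 and 81.8 CPM and 34.3, 31.5 and 42.6 CPM respectively (log2 fold change -1.19 ± 0.16 (SE), adjusted p = 0.0015). The ratio of *Slit3* to *Robo1* CPM per kb ranged from 0.731 to 1.31 in control and from 6.52 to 7.44 in *Trim28* cKO libraries. This ratio was chosen after the values were seen and was not tested. Luteal cell markers were lower in the same libraries for 7 of 8 (summed level 20599 to 35103 CPM against 5935 to 7943 CPM), and their part in the *Robo1* and *Robo2* results was not tested.

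*Robo4*, the endothelial member of the family, went the other way. Its level was 30.4, 34.3 and 33.5 CPM in control and 61.2, 63.1 and 55.4 CPM in *Trim28* cKO libraries, a rise in every one of them (log2 fold change 0.87 ± 0.10 (SE), adjusted p = 0.000864). Per kb, *Robo1* was the most abundant ROBO gene in control ovaries, with 48.6 ± 3.33% of the summed level, and *Robo4* in *Trim28* cKO ovaries, with 66.0 ± 4.24%. *Robo2* went from 19.8 ± 1.46% to 4.94 ± 0.75% of that sum. The summed ROBO level itself was 22.3 ± 1.7 CPM per kb in control and 18.3 ± 0.049 in *Trim28* cKO ovaries. Of 12 endothelial markers 1 was higher and 1 lower, and their summed level ranged from 829 to 927 CPM in control and from 804 to 1043 CPM in *Trim28* cKO libraries. Of 6 lymphatic endothelial markers 5 were higher (summed level 162 to 170 CPM against 595 to 667 CPM). The part of either list in the *Robo4* result was not tested. *Robo3* was low, with overlapping groups (log2 fold change 0.46 ± 0.43 (SE), adjusted p = 0.432).

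**Figure D2:**
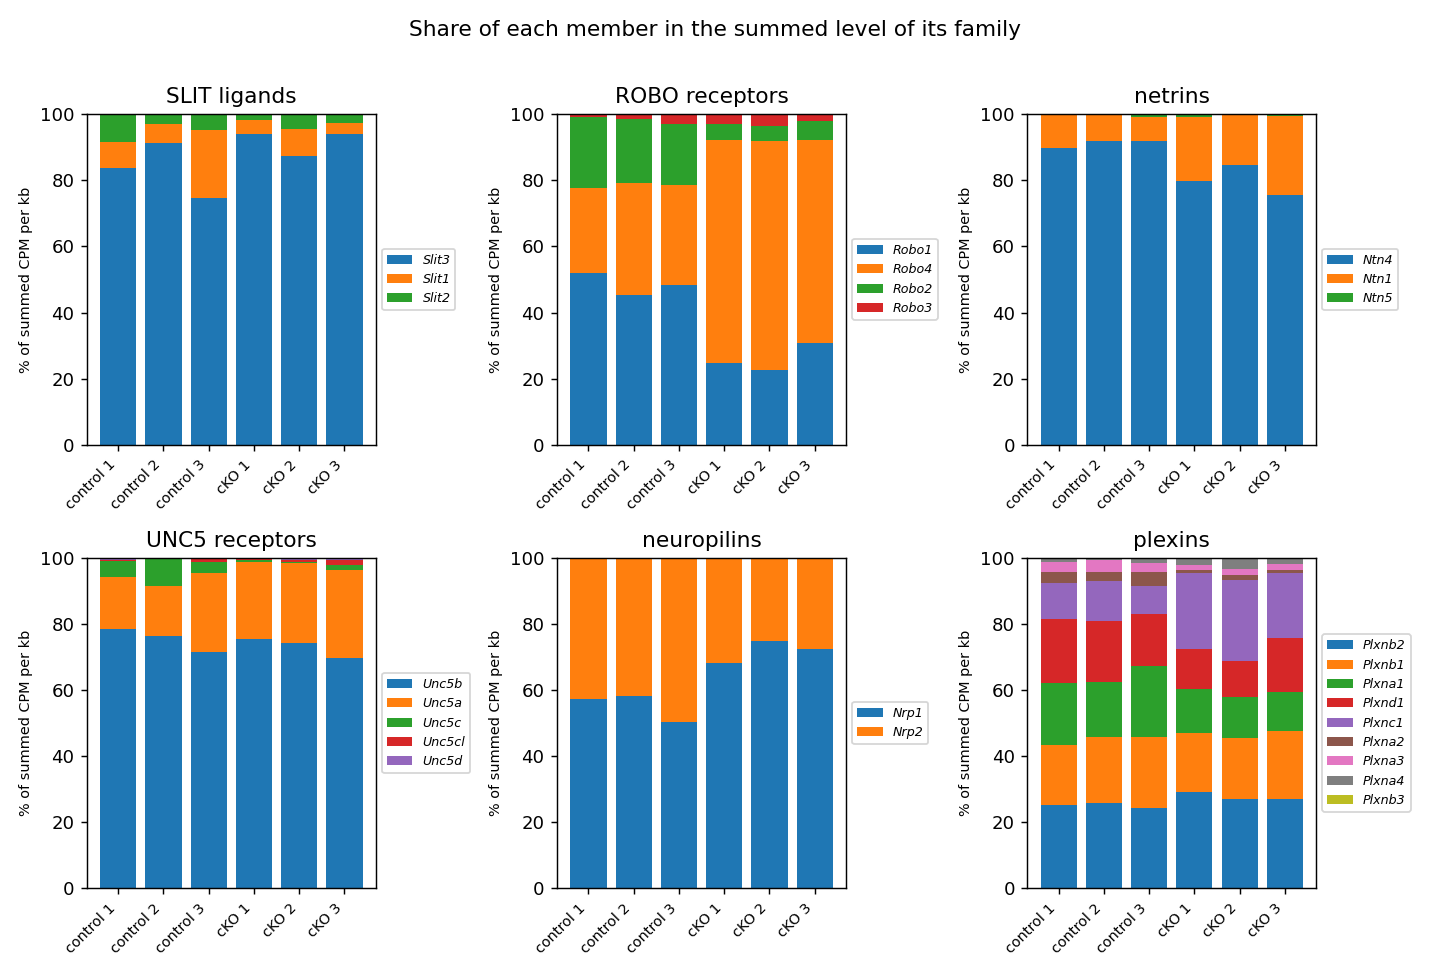
Share of each member in the summed level of its family, in CPM per kb of the longest coding transcript, for each of the 6 libraries (stacked bars, % on the vertical axis). *Robo4* made up 66.0 ± 4.24% of the ROBO sum in *Trim28* cKO ovaries against 29.8 ± 4.06% in control, and *Plxnc1* 22.3 ± 2.54% of the plexin sum against 10.4 ± 1.78%.

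Among netrins, *Ntn1* rose and *Ntn4*, a netrin of basement membranes, did not pass. *Ntn1*, the classical secreted attractant and repellent (chr11:68209364-68400823, minus strand, ENSMUSG00000020902), was at 9.18, 8.21 and 9.07 CPM in control libraries. It was at 38, 32 and 34.3 CPM in *Trim28* cKO libraries, well apart from the control range (log2 fold change 1.98 ± 0.12 (SE), adjusted p = 0.000177). *Ntn4* was the most abundant netrin per kb in every library and was at 51.7, 59.6 and 72.7 CPM in control and 96, 109.5 and 67.3 CPM in *Trim28* cKO libraries. The third of these *Trim28* cKO libraries lay inside the control range (log2 fold change 0.57 ± 0.20 (SE), adjusted p = 0.0651), and without it *Ntn4* passed (adjusted p = 0.0184). With no library left out, *Ntn4* passed with the DESeq2 Wald test (adjusted p = 0.0279). As a share of the summed netrin level per kb, *Ntn1* took 8.29 ± 1.44% in control and 19.6 ± 4.29% in *Trim28* cKO ovaries.

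The UNC5 receptors, which mediate repulsion by netrins, showed 1 lower member of 4 tested and none higher. Of all tested genes 16.8% were lower and 20.2% higher. *Unc5c* (chr3:141465216-141834924, plus strand, ENSMUSG00000059921) was low, at 3.69, 5.27 and 2.59 CPM in control and 0.577, 0.754 and 1.26 CPM in *Trim28* cKO libraries, and the groups did not overlap (log2 fold change -2.14 ± 0.41 (SE), adjusted p = 0.00666). *Unc5a* was at 5.1, 3.88 and 7.79 CPM and 9.33, 15.1 and 8.35 CPM, higher in each *Trim28* cKO library than in any control library without passing the test (log2 fold change 0.96 ± 0.33 (SE), adjusted p = 0.0586). It passed without control replicate 3 (adjusted p = 0.0332), with the DESeq2 Wald test (0.0145) and with no filter on low counts (0.0484). Its exons share 34 bases with those of *Hk3* on the opposite strand, itself higher (log2 fold change 3.70), and no source used here states whether reads were counted by strand. *Unc5b*, the most abundant UNC5 gene per kb of longest coding transcript, averaged 33.5 ± 3.9 CPM in controls and 48.1 ± 18.1 CPM after deletion (SD, n = 3). It did not pass (log2 fold change 0.52 ± 0.26 (SE), adjusted p = 0.158), except without *Trim28* cKO replicate 3 (adjusted p = 0.0364). *Unc5d* was under 1 CPM in all libraries. *Dcc*, which encodes the main attractive netrin receptor, was too low to be tested, at 0.167 to 0.388 CPM. *Neo1*, which encodes neogenin, was at 224, 218 and 206 CPM in control and 183, 228 and 175 CPM in *Trim28* cKO libraries. It did not pass (log2 fold change -0.14 ± 0.12 (SE), adjusted p = 0.397).

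Semaphorins, 20 of the 64 tested members, held 7 of the 15 that rose. Of these 20, 7 were higher and 3 lower, where 20.2% and 16.8% of all tested genes were. Their median log2 fold change was 0.21, and no family was tested as a set. The highest by fold was *Sema5b*, a transmembrane semaphorin (chr16:35541145-35664732, plus strand, ENSMUSG00000052133), at 6.1, 5.72 and 4.54 CPM in control and 27.6, 34.8 and 14.5 CPM in *Trim28* cKO libraries. The groups were apart, with the widest spread in *Trim28* cKO libraries (log2 fold change 2.23 ± 0.33 (SE), adjusted p = 0.00235). *Sema5a*, its closest relative, fell. It had the second highest level per kb of all semaphorins in control ovaries after *Sema7a*. It was at 395, 465 and 357 CPM in control and 114, 178 and 149 CPM in *Trim28* cKO libraries (log2 fold change -1.46 ± 0.19 (SE), adjusted p = 0.00132). The ratio of *Sema5a* to *Sema5b* CPM per kb ranged from 27.8 to 35.0 in control and from 1.77 to 4.43 in *Trim28* cKO libraries, a ratio chosen after the values were seen and not tested. Granulosa cell markers were lower for 7 of 14 and higher for 1 (summed level 4004 to 4545 CPM against 2906 to 3166 CPM). Sertoli cell markers were higher for 10 of 12 (133 to 161 CPM against 645 to 1245 CPM). Of the Sertoli sum, *Wt1* gave 79.8, 80.0 and 78.6 CPM in control and *Ptgds* 661, 167 and 192 CPM in *Trim28* cKO libraries. The part of both marker lists in the class 5 results was not tested.

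The class 4 semaphorins, transmembrane proteins of which several act between immune cells, included 3 higher and no lower member of 6. Of all tested genes 20.2% were higher and 16.8% lower. *Sema4a*, known from T cell responses (chr3:88435959-88461182, minus strand, ENSMUSG00000028064), was at 12, 19.8 and 13.1 CPM in control libraries and 57.2, 72.3 and 79.3 CPM in *Trim28* cKO libraries, with no overlap (log2 fold change 2.22 ± 0.22 (SE), adjusted p = 0.00059). *Sema4d*, the ligand of plexin B1 and, on immune cells, of CD72, was at 13, 15.1 and 14.2 CPM and 37.7, 28.4 and 43.7 CPM (log2 fold change 1.38 ± 0.17 (SE), adjusted p = 0.00131). *Sema4b* was higher by a smaller amount (log2 fold change 0.60 ± 0.13 (SE), adjusted p = 0.0117), which was not kept without control replicate 1 (adjusted p = 0.0531). *Sema4c*, *Sema4f* and *Sema4g* did not pass, with log2 fold changes from -0.06 to 0.59. The summed level of the class ranged from 172 to 213 CPM in control and from 298 to 312 CPM in *Trim28* cKO libraries. All 12 macrophage markers were higher, with a summed level of 530 to 621 CPM in control and 3018 to 5611 CPM in *Trim28* cKO libraries. Of 10 lymphocyte markers 4 were higher and none lower (12.7 to 26.3 CPM against 36.7 to 91.0 CPM). None of these markers was at 0 in all libraries, and their part in the class 4 result was not tested.

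*Sema6c*, a transmembrane class 6 semaphorin (chr3:95160457-95174024, plus strand, ENSMUSG00000038777), was at 34.9, 35.4 and 28.5 CPM in control and 143, 183 and 124 CPM in *Trim28* cKO libraries. Its *Trim28* cKO level was thus several times that of any control library (log2 fold change 2.19 ± 0.17 (SE), adjusted p = 0.000287). *Sema6b* was higher (log2 fold change 0.64 ± 0.13 (SE), adjusted p = 0.00978) and *Sema6d*, a ligand of plexin A1, lower (log2 fold change -0.61 ± 0.17 (SE), adjusted p = 0.0263). The *Sema6d* call was not kept without control replicate 1 (adjusted p = 0.0886), control replicate 3 (0.05001) or *Trim28* cKO replicate 3 (0.0645), nor with the replicate number as a block (0.0623). *Sema6a*, on chromosome 18, did not pass (log2 fold change 0.01 ± 0.17). Among the secreted class 3 genes, *Sema3e*, which binds plexin D1 without a neuropilin, was at 3.77, 4.08 and 2.9 CPM in control and 15.7, 10.5 and 7.38 CPM in *Trim28* cKO libraries. It was higher in each of the latter (log2 fold change 1.64 ± 0.31 (SE), adjusted p = 0.00642). *Sema3g*, known from the vasculature, was at 91.1, 113 and 88.5 CPM and 29.8, 40.8 and 47.3 CPM, the only class 3 gene that fell (log2 fold change -1.31 ± 0.19 (SE), adjusted p = 0.00211).

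The other class 3 members, *Sema3a*, *Sema3b*, *Sema3c*, *Sema3d* and *Sema3f*, did not pass, with log2 fold changes from -0.45 to 0.88. Of these, *Sema3a* was higher in every *Trim28* cKO library than in any control one (log2 fold change 0.88 ± 0.33 (SE), adjusted p = 0.0751). It passed with the DESeq2 Wald test (adjusted p = 0.0281). *Sema3c* was at 64.4, 61.7 and 60.1 CPM in control and 39, 90.8 and 47.9 CPM in *Trim28* cKO libraries, the second of which lay above all the others. Without it *Sema3c* was lower (log2 fold change -0.51, adjusted p = 0.0284). *Sema3d* passed as lower with the replicate number as a block (adjusted p = 0.0310). *Sema7a*, the lipid-anchored ligand of plexin C1 and of integrins, had the highest level per kb of all semaphorins. It was at 189.7, 193 and 191 CPM in control and 198, 215 and 174 CPM in *Trim28* cKO libraries, with overlapping groups (log2 fold change 0.04 ± 0.10 (SE), adjusted p = 0.803).

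**Figure D3:**
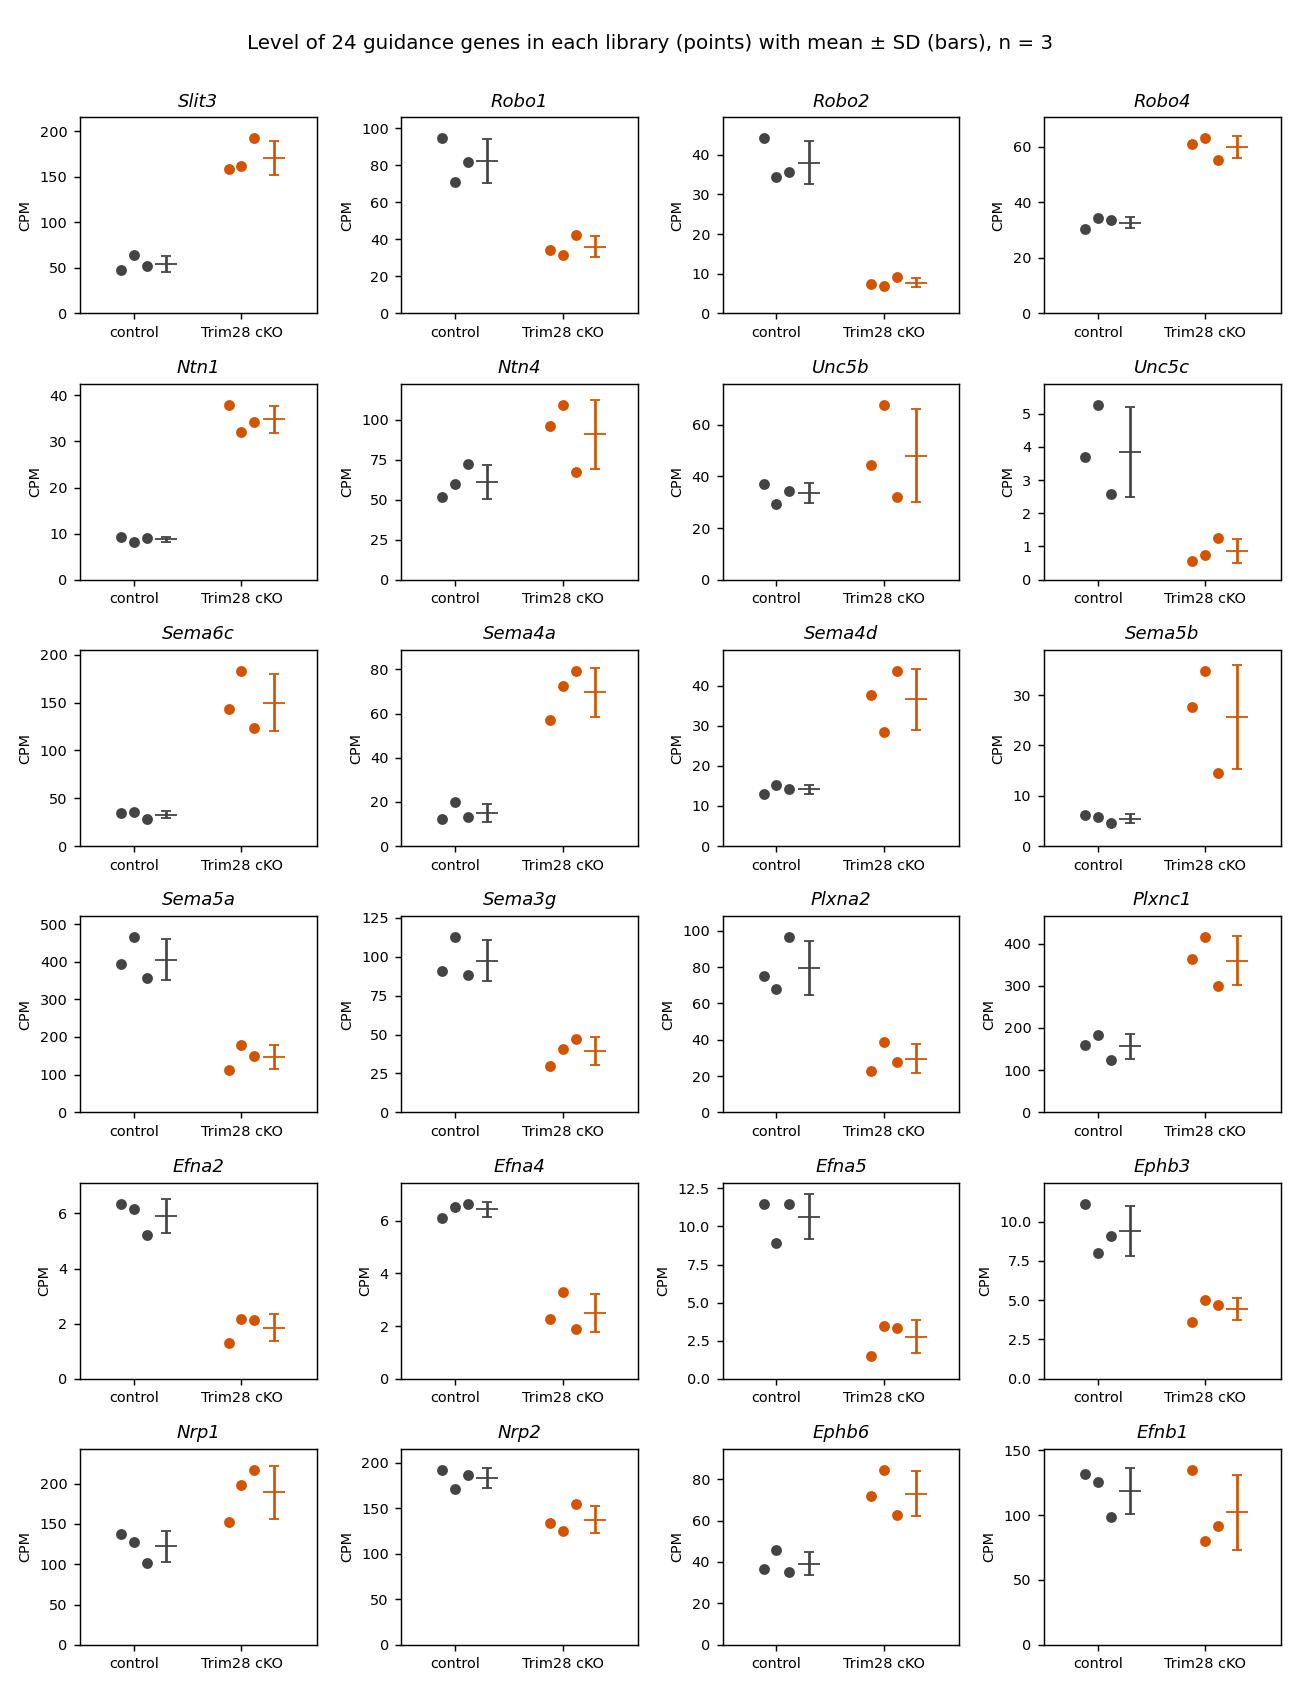
Level in CPM of 24 guidance genes in each library (points, 3 control in grey and 3 *Trim28* cKO in orange) with the mean and SD of each group; vertical axes start at 0 and differ between genes. The groups are apart for *Slit3*, *Robo2*, *Ntn1* and *Sema6c* and overlap for *Ntn4*, *Unc5b* and *Efnb1*.

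Plexins were the most abundant receptors here, with a summed level of 205 ± 4.44 CPM per kb in control and 219 ± 12.1 in *Trim28* cKO ovaries (SD, n = 3). Of 9 plexins 3 were higher and 3 lower, where 20.2% and 16.8% of all tested genes were. All 4 class A plexins, the usual partners of neuropilins, passed the test, 3 of them lower. *Plxna2* (chr1:194618218-194816869, plus strand, ENSMUSG00000026640) was at 75, 67.7 and 96.5 CPM in control and 22.7, 38.7 and 27.5 CPM in *Trim28* cKO libraries, with no overlap (log2 fold change -1.43 ± 0.22 (SE), adjusted p = 0.00308). *Plxna3* (log2 fold change -0.77 ± 0.16, adjusted p = 0.00862) and *Plxna1* (-0.49 ± 0.12, adjusted p = 0.018) were lower by less. The *Plxna1* call was not kept without control replicate 1 (adjusted p = 0.0590), control replicate 3 (0.0589) or *Trim28* cKO replicate 3 (0.0646), nor with the replicate block (0.0583). *Plxna4* was higher, at 34.5, 20 and 37.5 CPM against 49.1, 86.8 and 45.3 CPM (log2 fold change 0.98 ± 0.32 (SE), adjusted p = 0.0482). That call was not kept in 9 of 13 alternatives, among them those without control replicates 1, 2 and 3 (adjusted p = 0.0894, 0.110 and 0.0618) and without *Trim28* cKO replicates 1 and 2 (0.0613 and 0.122). Without *Trim28* cKO replicate 2 its log2 fold change was 0.63.

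*Plxnc1*, the receptor of SEMA7A (chr10:94790866-94944835, minus strand, ENSMUSG00000074785), was at 160.5, 184 and 125 CPM in control and 363, 415 and 299.8 CPM in *Trim28* cKO libraries. No control library reached the *Trim28* cKO range (log2 fold change 1.20 ± 0.18 (SE), adjusted p = 0.00264), and its share of the plexin sum per kb went from 10.4 ± 1.78% to 22.3 ± 2.54%. *Plxnb3*, a receptor of SEMA5A, rose from a low level, 0.846, 0.735 and 1.04 CPM in control against 3.78, 7.06 and 3.26 CPM in *Trim28* cKO libraries (log2 fold change 2.41 ± 0.37 (SE), adjusted p = 0.00289). *Plxnb1*, the receptor of SEMA4D, was among the most abundant plexins and overlapped between groups, at 321, 366 and 375 CPM and 329, 370.0 and 371 CPM (log2 fold change 0.01 ± 0.11 (SE), adjusted p = 0.949). *Plxnb2* (log2 fold change 0.25 ± 0.10) and *Plxnd1* (-0.35 ± 0.16) did not pass, though *Plxnd1* was lower without *Trim28* cKO replicate 3 (adjusted p = 0.0375). With the DESeq2 Wald test *Plxnb2* was higher (adjusted p = 0.0296). The macrophage markers and most of the Sertoli cell markers given above were also higher in *Trim28* cKO libraries. The part of either list in the *Plxnc1* rise was not tested.

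The 2 neuropilins, co-receptors of class 3 semaphorins and of VEGF, moved in opposite directions. *Nrp1* was at 138, 127 and 101 CPM in control and 152, 198 and 217 CPM in *Trim28* cKO libraries (log2 fold change 0.63 ± 0.17 (SE), adjusted p = 0.0242). *Nrp2* was at 192, 171 and 187 CPM and 134, 125 and 154 CPM (log2 fold change -0.41 ± 0.11 (SE), adjusted p = 0.0227). The groups did not overlap for either gene, and the *Nrp1* share of the neuropilin sum per kb went from 55.3 ± 4.32% to 71.8 ± 3.41%. Both changes are small and neither call was kept throughout. *Nrp1* lost it without control replicates 2 and 3 (adjusted p = 0.0553 and 0.0686), without *Trim28* cKO replicates 2 and 3 (0.0624 and 0.0693) and with the replicate block (0.0637). *Nrp2* lost it without control replicates 1 and 3 (0.0891 and 0.0693) and without *Trim28* cKO replicates 1 and 2 (0.0562 and 0.0700).

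Ephrins fell or did not pass. Of 7 tested, 4 were lower and none higher, where 16.8% and 20.2% of all tested genes were. The median log2 fold change of the ephrins was -0.49. The A-type ephrins accounted for 3 of the 4. *Efna5* (chr17:62604184-62881317, minus strand, ENSMUSG00000048915), a lipid-anchored ligand of EphA receptors, was at 11.5, 8.94 and 11.5 CPM in control and 1.51, 3.43 and 3.33 CPM in *Trim28* cKO libraries (log2 fold change -1.94 ± 0.33 (SE), adjusted p = 0.00431). *Efna2* was at 6.36, 6.16 and 5.22 CPM and 1.28, 2.17 and 2.11 CPM (log2 fold change -1.67 ± 0.27 (SE), adjusted p = 0.00347). *Efna4* was at 6.13, 6.53 and 6.66 CPM and 2.28, 3.29 and 1.9 CPM (log2 fold change -1.37 ± 0.26 (SE), adjusted p = 0.00622). For none of these genes did any *Trim28* cKO library reach the control range. Oocyte markers were lower in the same libraries for 11 of 13 (summed level 297 to 617 CPM against 52.7 to 64.9 CPM), and the part of these and of the granulosa and luteal cell markers in the ephrin and Eph results was not tested. Exons of *Efna4* share 168 bases with those of the antisense gene *4731419I09Rik*, which had 76 counts over the 6 libraries. That gene was itself lower (log2 fold change -1.77, adjusted p = 0.0102). *Efna1* averaged 18.8 ± 1.63 CPM in controls and 18.3 ± 0.731 CPM after deletion (SD, n = 3) and did not pass (log2 fold change -0.04 ± 0.12 (SE), adjusted p = 0.829). *Efna3* was too low to be tested, at 0.0962 to 0.282 CPM.

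*Efnb1*, a transmembrane ephrin and the most abundant ephrin per kb, was at 132, 126 and 98.8 CPM in control and 135, 80 and 91.6 CPM in *Trim28* cKO libraries, with overlapping groups (log2 fold change -0.22 ± 0.21 (SE), adjusted p = 0.452). *Efnb3* did not pass (log2 fold change 0.29 ± 0.16). *Efnb2*, known from arterial endothelium, was lower by a small amount (log2 fold change -0.49 ± 0.14 (SE), adjusted p = 0.0349). Its call was not kept without control replicates 1, 2 and 3 (adjusted p = 0.0979, 0.0539 and 0.0943), without *Trim28* cKO replicates 1 and 3 (0.0572 and 0.0848) or with the replicate block (0.0730).

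Among Eph receptors 4 of 13 tested were lower and 1 higher, where 16.8% and 20.2% of all tested genes were. *Epha8* (chr4:136929419-136956816, minus strand, ENSMUSG00000028661) was at 3.05, 0.816 and 1.93 CPM in control and 0.128, 0.0913 and 0.272 CPM in *Trim28* cKO libraries, with no overlap (adjusted p = 0.00516). It passed the filter through its control counts of 119, 20 and 87, and with 4, 4 and 13 counts in *Trim28* cKO libraries its fitted log2 fold change of -3.52 ± 0.63 (SE) is uncertain in size. That value was -4.13 without *Trim28* cKO replicate 3, and the filter of 1 CPM in 3 libraries did not test the gene. *Epha10*, which encodes a receptor without kinase activity, had 14, 13 and 19 counts in control and 4, 2 and 1 counts in *Trim28* cKO libraries, too few for a fold to be given (adjusted p = 0.0102). It also passed the filter through its control counts, so this call is uncertain, and the filter of 1 CPM in 3 libraries did not test it. *Ephb3*, a receptor of B-type ephrins, was at 11.2, 8.0 and 9.1 CPM and 3.62, 4.98 and 4.71 CPM, with no overlap (log2 fold change -1.08 ± 0.21 (SE), adjusted p = 0.00778). *Epha7* was lower by less (log2 fold change -0.90 ± 0.22 (SE), adjusted p = 0.018), and this call was not kept without control replicates 1 and 3 (adjusted p = 0.0727 and 0.0564), without *Trim28* cKO replicate 3 (0.0600) or with the replicate block (0.0620).

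*Ephb6*, which also lacks kinase activity, was the only Eph receptor that rose. Its level was 36.7, 45.8 and 35.2 CPM in control and 71.7, 84.4 and 62.6 CPM in *Trim28* cKO libraries (log2 fold change 0.89 ± 0.15 (SE), adjusted p = 0.00427). *Ephb4*, the EFNB2 receptor of veins, did not pass (log2 fold change -0.13 ± 0.10 (SE), adjusted p = 0.361), and the ratio of *Ephb6* to *Ephb4* CPM per kb ranged from 0.437 to 0.542 in control and from 0.803 to 1.09 in *Trim28* cKO libraries. *Epha3* was at 13.4, 9.1 and 11.4 CPM in control and 0.802, 4.75 and 4.64 CPM in *Trim28* cKO libraries, below the control range in each, and just missed the threshold (log2 fold change -1.72 ± 0.58 (SE), adjusted p = 0.0525). Without *Trim28* cKO replicate 1, its lowest library, it passed (log2 fold change -1.27, adjusted p = 0.00931). With no library left out, *Epha3* also passed with the DESeq2 Wald test (adjusted p = 0.00558), limma-voom (0.0291) and library size alone (0.0496). *Epha4* was also below the control range without passing (log2 fold change -0.82 ± 0.28 (SE), adjusted p = 0.0559), and passed without *Trim28* cKO replicate 3 (adjusted p = 0.0347). With no library left out, it passed with the DESeq2 Wald test (adjusted p = 0.0175), limma-voom (0.0409) and library size alone (0.0489). *Ephb2* spread widely among control libraries, at 31.2, 16.7 and 50.9 CPM, against 21.9, 27.9 and 22.3 CPM in *Trim28* cKO libraries (log2 fold change -0.46 ± 0.36 (SE), adjusted p = 0.362). It passed without control replicate 2 (adjusted p = 0.0499). *Epha1*, *Epha2*, *Epha5* and *Ephb1* had log2 fold changes from 0.26 to 0.47 and did not pass. Exons of *Epha1* share 236 bases with those of *Zyx* on the opposite strand, which was itself higher (log2 fold change 0.99).

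Markers of several ovarian cell types were lower in the same libraries as the lower members, and others were higher. Besides the granulosa, luteal, oocyte, Sertoli, macrophage, lymphocyte and endothelial lists given above, the following lists were examined, each by its summed level in control against *Trim28* cKO libraries. Smooth muscle and pericyte markers were lower for 5 of 10 and higher for 1 (1423 to 1792 CPM against 582 to 1099 CPM). Surface epithelium markers were higher for 7 of 10, with 1 lower (2287 to 3105 CPM against 4111 to 7359 CPM). Most of this sum came from *Aldh1a1*, at 2119, 2997 and 2235 CPM in control and 6950, 3865 and 3789 CPM in *Trim28* cKO libraries. Stromal fibroblast markers were higher for 3 of 10 and 7 did not pass (3389 to 4022 CPM against 3892 to 5098 CPM), so the summed ranges overlapped. In this list *Dcn* was at 504, 467 and 438 CPM in control and 1154, 1739 and 1925 CPM in *Trim28* cKO libraries. *Col3a1* went the other way without passing, at 1325, 1036 and 1150 CPM against 767, 944 and 875 CPM. Of 11 neuron and glial cell markers tested 2 were higher and 3 lower, and the summed level of that list ranged from 132 to 148 CPM in control and from 133 to 189 CPM in *Trim28* cKO libraries, so that it overlapped. The part of these cell types in the members' levels was not tested.

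Levels were compared between genes per kb only. With the deposited normalised signal per kb of median transcript length, the highest members of their families by the mean over all 6 libraries were *Plxnb1*, *Ephb6*, *Unc5a*, *Sema7a*, *Slit3*, *Robo4*, *Efnb1*, *Nrp1* and *Ntn4*. With the longest coding transcript instead, a length chosen after the data were seen, *Plxnb2*, *Ephb4* and *Unc5b* took the place of the first 3 in the same pooled mean and the other 6 stayed. A mean over both groups hides changes of order between them. On this scale *Robo1* (10.9 CPM per kb) was above *Robo4* (6.61) in control ovaries and below it in *Trim28* cKO ovaries (4.78 against 12.1). *Ephb6* was below *Ephb4* in every control library and above it in 2 of 3 *Trim28* cKO libraries. The deposited length is short for some members, 731 bases for *Plxnb1* against 8649 bases for its longest coding transcript, so the order within plexins, and the shares within families given above, depend on this choice. On the second scale *Sema7a* was at 58 CPM per kb in control and 59.5 in *Trim28* cKO ovaries. *Sema5a* went from 37.5 to 13.6 CPM per kb, *Sema6c* from 8.17 to 37.2 and *Plxnc1* from 21.4 to 49.2.

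**Figure D4:**
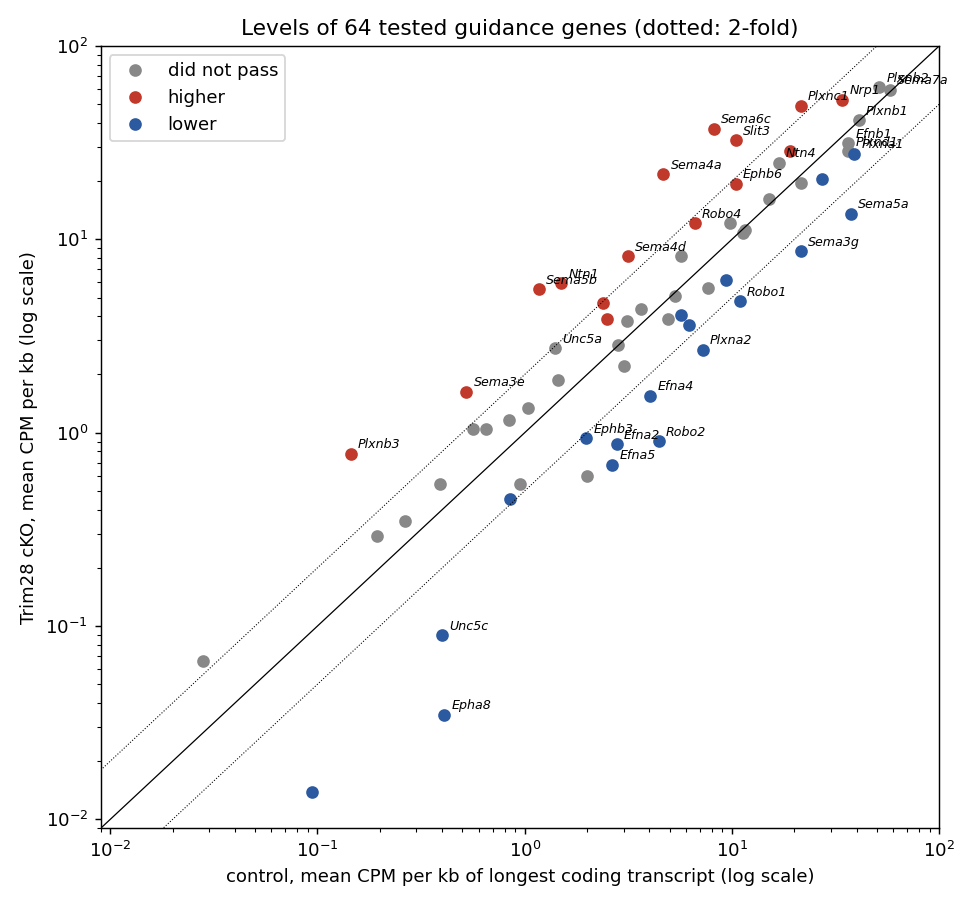
Mean level of the 64 tested guidance genes in CPM per kb of the longest coding transcript, control on the horizontal and *Trim28* cKO on the vertical axis (both log scales); the solid line marks equal levels, and genes with full values in the text or a high level are named. *Sema6c* and *Sema4a* lie far above the line and *Robo2* and *Epha8* far below it, while *Sema7a* and *Plxnb1* lie close to it.

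Partners and effectors were described from a list of 56 genes drawn up by textbook role. Of 55 tested, 15 were higher and 14 lower, where 20.2% and 16.8% of all tested genes were. The highest fold was that of *Cd72*, the immune receptor of SEMA4D, at 3.36, 5.35 and 4.96 CPM in control and 25.4, 31.4 and 38.8 CPM in *Trim28* cKO libraries (log2 fold change 2.81 ± 0.24 (SE), adjusted p = 0.000388). *Rnd1*, a small GTPase that binds plexins, was at 0.846, 0.857 and 0.885 CPM and 4.1, 5.21 and 2.82 CPM (log2 fold change 2.22 ± 0.30 (SE), adjusted p = 0.00173). *Fes*, a tyrosine kinase downstream of plexin A, was at 16.5 ± 1.21 CPM and 45.5 ± 7.79 CPM (SD, n = 3), and was higher (log2 fold change 1.47 ± 0.15). CD72 and FES are both known from blood cell lineages. All 12 macrophage markers were higher in the same libraries, and their part in these rises was not tested. *Chl1* and *L1cam*, adhesion proteins that join neuropilins in semaphorin receptors, were higher from low levels (log2 fold changes 2.03 ± 0.39 and 1.21 ± 0.34). *Chl1* was at 0.282, 0.163 and 0.155 CPM in control and 1.03, 0.845 and 0.648 CPM in *Trim28* cKO libraries. It passed the filter through its *Trim28* cKO libraries, so its call and the size of its fold are uncertain.

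The lowest fold in that list was that of *Ntng1*, a lipid-anchored netrin relative that does not bind DCC, at 10.4, 12.1 and 12 CPM in control and 0.834, 1.05 and 1.11 CPM in *Trim28* cKO libraries (log2 fold change -3.52 ± 0.21 (SE), adjusted p = 0.000149). Of the 5 CRMP genes, whose cytosolic products relay semaphorin signals to microtubules, 1 was higher and 2 lower, and *Crmp1* (log2 fold change -0.88, adjusted p = 0.0825) and *Dpysl5* (-0.29, adjusted p = 0.522) did not pass. *Dpysl3* was lower, at 221, 262 and 243 CPM against 77.4, 114 and 118 CPM (log2 fold change -1.23 ± 0.17 (SE), adjusted p = 0.00191). *Dpysl4* was lower with wide spread among control libraries, at 197, 76.1 and 338 CPM against 47.8, 70 and 39.7 CPM (log2 fold change -1.96 ± 0.51 (SE), adjusted p = 0.0216). *Dpysl2* was higher, at 18, 21.7 and 19 CPM against 38.6, 42.2 and 38 CPM (log2 fold change 1.02 ± 0.11 (SE), adjusted p = 0.000835). *Srgap1*, whose product binds ROBO1, was lower (log2 fold change -1.11 ± 0.31), and so were *Gpc1* (-0.88 ± 0.12) and *Dag1* (-0.49 ± 0.13), whose products bind SLITs. The counts of this list depended on 1 library at a time: without control replicate 1, 9 were higher and 5 lower, and 8, 8 and 7 were lower without control replicate 3, *Trim28* cKO replicate 1 and *Trim28* cKO replicate 3.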

How the data were processed

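RNA of whole ovaries (600 ng per library; 7-month-old mice, 3 control and 3 *Trim28* cKO) was sequenced after poly(A) selection with a strand-marking kit. STAR 2.5.3a with mm10 and htseq-count 0.6.1p1 with Ensembl 92 gave the raw counts per gene that the authors deposited. Demultiplexing with bcl2fastq 2.17.1.14 and the use of DESeq2 1.16.1 are named in the submitters' processing notes. The authors also deposited a normalised signal (counts per DESeq2 size factor), the same signal per kb of median transcript length, used here only to rank levels, and their own fold changes and p-values, which were not used.

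Counts of 18959 of 34461 genes passed filterByExpr (minimum count 10, minimum total 15) and were TMM-scaled. The quasi-likelihood test of edgeR 4.0.16 (R 4.3.3; robust glmQLFit, then glmQLFTest) was used with Benjamini-Hochberg adjustment over all tested genes, and calls needed an adjusted p no larger than 0.05. The script was tested on simulated data. CPM per kb use the longest coding transcript of GENCODE M21. Folds are *Trim28* cKO over control. Total counts were 38547807, 23615580 and 45033787 in control and 32441021, 43904823 and 48508461 in *Trim28* cKO libraries. Libraries of a group differed by more than sampling noise (29.4 to 89.4 chi-square units per degree of freedom). The floor of 3 counts covers counting error only. Same-numbered libraries were treated as unpaired, since no source used here says that they were paired. Nothing in the labels ties libraries to mice by name, and p-values measure the spread between these libraries.

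Values in every library are given for members past the threshold with a log2 fold change beyond 1 and a higher group mean of at least 1 CPM, and for the member of each family with the highest deposited signal per kb. Values of some other members, and of partners and effectors, were added after they were seen. Members and lists were chosen with earlier results of these data known. Alternatives were DESeq2 size factors, library size alone, no filter, a filter of 1 CPM in 3 libraries, limma-voom (limma 3.58.1), the DESeq2 1.42.0 Wald test, the replicate number as a block and each library left out in turn. Promoter stretches and figures used Python 3.11.15 with pandas 2.3.3 and matplotlib 3.10.9.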

Additional observations from a re-analysis of the deposited data

How the results depend on the processing

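The 13 alternatives reversed none of the 33 members called, and 25 of them kept their call in every alternative that tested them. The other 8 (*Efnb2*, *Epha7*, *Nrp1*, *Nrp2*, *Plxna1*, *Plxna4*, *Sema4b* and *Sema6d*) lost it in at least 1, and 11 members not called passed in at least 1. The filter of 1 CPM in 3 libraries did not test *Epha8* and *Epha10*. With the Wald test of DESeq2, 19 members were higher and 20 lower. With each library left out in turn, 13 to 16 members were higher and 13 to 18 lower. The same settings gave 9 to 15 higher and 5 to 12 lower partners and effectors, with the fewest in both cases without control replicate 1; fewer libraries entered these fits.

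Deviations of same-numbered libraries from their group means had correlations of -0.0701, 0.0595 and -0.168, against -0.162 to 0.226 between different numbers. With 3 libraries per group these values cannot show whether same-numbered libraries were paired. A fit with a replicate block called 13 members higher and 15 lower, 9 and 12 of them past a log2 fold change of 1, and 12 partners and effectors higher and 7 lower.

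Log2 fold changes that changed sign belonged to members that were not called. Leaving out libraries gave -0.109 to 0.0129 for *Efna1*, -0.00067 to 0.52 for *Epha2*, -0.77 to 0.0015 for *Ephb2*, -0.0540 to 0.0679 for *Plxnb1* and -0.51 to 0.16 for *Sema3c*. It gave -0.20 to 0.14 for *Sema4g*, -0.15 to 0.15 for *Sema6a*, -0.0298 to 0.12 for *Sema7a* and -0.0942 to 1.18 for *Slit1*. Library-size scaling gave -0.0403 for *Plxnb1*, -0.0382 for *Sema6a* and -0.0147 for *Sema7a*, limma-voom 0.0026 for *Sema4g*, and the replicate block -0.0053 for *Sema6a*. The cause was not tested. Under the scaling alternatives the median over all tested genes stayed between -0.05 and 0.01. Depth limits *Epha6*, *Efna3*, *Ntn5* and *Unc5cl*, which were not tested.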

Other observations

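Some members lie within 1000000 bases of each other on the same chromosome. *Robo1* and *Robo2*, 846211 bases apart on chromosome 16, were both lower. *Plxnb3* and *Plxna3*, 556552 bases apart on the X chromosome, moved in opposite directions, the first higher and the second lower. *Robo4* and *Robo3* are 554 bases apart on chromosome 9, and of these *Robo4* was higher (log2 fold change 0.87) while *Robo3* did not pass (0.46). On chromosome 3, *Efna4* was lower, *Efna3*, 10425 bases away, was too low to be tested, and *Efna1* did not pass. *Sema3e* was higher, and *Sema3a*, its neighbour on chromosome 5, did not pass.

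*Plxna4os1*, an antisense transcript annotated at chr6:32511073-32515576 on mm10 and no member, was at 0.667, 0.776 and 0.597 CPM in control and 3.69, 1.87 and 2.91 CPM in *Trim28* cKO libraries (log2 fold change 2.05 ± 0.34 (SE), adjusted p = 0.00363). *Plxna4* itself was called higher (log2 fold change 0.98), a call not kept in 9 of 13 alternatives. No source used here states whether reads were counted by strand.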
